A study of Mus musculus with 6 samples.

Results

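The glycolysis and hypoxia-induced genes are 35 mouse genes picked by name, 27 that take up glucose, turn it into lactate and regulate that flow, and 8 best known as targets of the hypoxia response. All 35 were found by gene identifier among the 39179 genes of the count files. RNA came from cultured B16-F10 cells, a melanoma line of C57BL/6 mice, either Sirpa-knockout (labelled Sirpa-KO, 3 libraries) or Sirpa-wild type (labelled Sirpa-WT, 3 libraries), with no treatment named for either group. Sirpa encodes SIRPα, a receptor for CD47, and the study asks what its presence on the tumour cell itself does. The labels do not say whether each genotype is 1 clone or several, how the gene was edited, or whether replicates were separate cultures, so any p-value speaks of the spread among these libraries, which may be technical. Another label field gives the cell line as Pmel and the source as tumour.

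Glycolysis splits glucose into pyruvate in the cytosol and yields ATP without oxygen; lactate dehydrogenase then turns pyruvate into lactate, and transporters carry the lactate out. When oxygen is short, the HIF transcription factors escape degradation and raise many of these enzymes, together with genes of mitophagy, collagen hydroxylation and pH control. Many tumours, melanoma among them, run glycolysis at a high rate even with oxygen present. Several glycolytic enzymes have processed pseudogenes, intronless copies that arose from their mRNA, and some copies still match the parent base for base.

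The libraries fell into 2 kinds. Sirpa-KO replicate 1 held 29877270 counts, 82.6 times the mean of the 5 others, and is named the deep library below; the 5 others held 338824 to 411695 counts and are named shallow. In a shallow library 3 counts equal 7.29 to 8.85 CPM (counts per 1000000 counted in the library), below which a level cannot be told from 0. Processed pseudogenes took 0.16% of all counts in the deep library, 25.8% and 25.6% in Sirpa-KO replicates 2 and 3, and 27.7% to 28.7% in Sirpa-WT. All 6 libraries were counted with the same command, per the file headers, but whether the deep library's reads were aligned like the others was not settled from the files, so a difference between deep and shallow libraries may not be one of expression. This holds for the pseudogene and Eno1b shares, for the ratios to the deep library and for the trend taken from them. All 7 melanocyte markers checked had counts in the shallow libraries, with summed CPM of 15520 in the deep library, 12630 and 12990 for Sirpa-KO replicates 2 and 3, and 15960 to 19090 for Sirpa-WT. Most of the gap between the shallow groups was Dct, at 4575 and 4863 CPM in Sirpa-KO replicates 2 and 3 against 7901 to 9935 CPM in Sirpa-WT. In the same groups Mitf stood at 428 and 373 against 593 to 646 CPM, and Pmel at 691 and 781 against 861 to 1049 CPM. Neither of these overlapped, whereas Tyrp1, Mlana, Tyr and Sox10 did. Among all genes tested, Sirpa-KO replicates 2 and 3 lay wholly below Sirpa-WT in 11.8%. Immune markers summed to at most 8.16 CPM and Ptprc, Cd3e, Pecam1, Cdh5 and Dcn had 0 counts in each shallow library. Sirpa itself had 1584, 6 and 6 counts in Sirpa-KO and 12, 7 and 3 in Sirpa-WT, which is 53.0, 17.7 and 16.3 CPM against 29.2, 20.4 and 8.68 CPM. The targeted gene was thus highest in the deep library and overlapped between the shallow groups, on few counts, so it does not check the labels, and Sirpa-KO and Sirpa-WT below mean the libraries labelled so. The main results are given with and without the deep library.

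Stretches of coding sequence show how close the copies are, and so how a short read can be placed on either. Coding bases 301 to 375 are printed (bases counted from the A of the start codon; GENCODE M21 transcripts, GRCm38), in lower case, with capitals where a copy differs from its parent. The Gapdh stretch stands beside 3 of its pseudogenes, on chromosomes 5, 11 and 15, and the Pgk1 stretch beside Pgk1-rs7 on chromosome 12.
Gapdh: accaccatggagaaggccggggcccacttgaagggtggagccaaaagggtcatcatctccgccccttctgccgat
Gm10359: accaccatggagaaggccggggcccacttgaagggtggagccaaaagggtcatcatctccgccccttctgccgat
Gm12070: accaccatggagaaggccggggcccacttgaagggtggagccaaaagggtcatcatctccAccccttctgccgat
Gm9522: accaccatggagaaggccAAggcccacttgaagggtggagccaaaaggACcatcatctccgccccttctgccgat
Pgk1: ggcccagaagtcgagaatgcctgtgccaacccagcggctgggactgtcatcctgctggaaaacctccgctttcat
Pgk1-rs7: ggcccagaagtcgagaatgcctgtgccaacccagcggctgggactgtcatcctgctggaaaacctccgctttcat
Gm10359 and Pgk1-rs7 had 0 differences over the 75 bases, Gm12070 had 1 and Gm9522 had 4. Over their GENCODE M21 transcripts, Gm10359 and Pgk1-rs7 shared 100% of their 25-base words with the parent, Gm12070 97.4% and Gm9522 24.2%. These transcripts need not cover the whole counted span. Pgk1-rs7 shared 1231 words and spans 1731 bases, and Gm12070 shared 953 and spans 2707.

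Along the pathway the middle and lower steps were the most abundant. Levels of different genes are compared here as CPM per kb of exon; exon length is that of the files, which merges all annotated transcripts, retained introns included. In the shallow libraries Eno1b, known as a retrotransposed copy of the enolase gene Eno1, ranked first, at 1182 ± 104 CPM per kb in Sirpa-KO replicates 2 and 3 (SD, n = 2) and 1663 ± 96.5 in Sirpa-WT (SD, n = 3). Gapdh, the enzyme that reduces NAD at the middle of the pathway, ranked second, at 864 ± 134 and 964 ± 89.9 CPM per kb in the same groups. In the deep library Gapdh ranked first, at 1332 CPM per kb, followed by Ldha at 714 and Tpi1 at 642. Eno1b there ranked 33 of 35, at 0.857 CPM per kb.

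**Figure D1:**
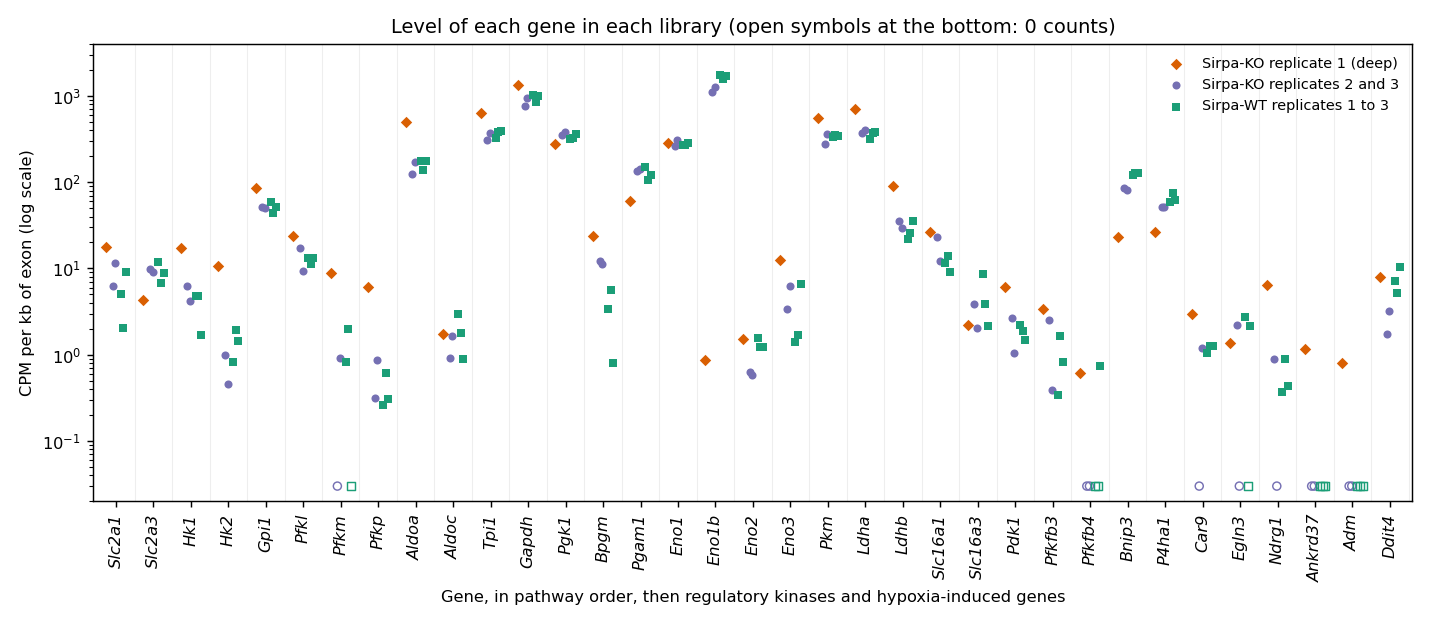
The plot gives CPM per kb of exon on a log axis for each of the 35 genes in each library, with the deep library as diamonds, Sirpa-KO replicates 2 and 3 as circles, Sirpa-WT as squares and libraries with 0 counts as open symbols at the bottom. Gapdh, Ldha, Pkm and Tpi1 lie high in all libraries, Eno1b lies high in the shallow libraries and at 0.857 CPM per kb in the deep one, and most hypoxia-induced genes lie near the bottom.

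At each step with several isoforms, 1 form took most of the RNA per length. Hk1, the widely expressed hexokinase, made up 61.5% of Hk1 plus Hk2 in the deep library, 88.2% ± 2.7 in Sirpa-KO replicates 2 and 3 (SD, n = 2) and 70.2% ± 15.9 in Sirpa-WT (SD, n = 3). Pfkl, the liver-type phosphofructokinase, made up 61.1%, 91.0% ± 10.2 and 90.5% ± 8.4 of the 3 phosphofructokinase genes in the same groups. Aldoa over Aldoc (the brain-type aldolase) and Ldha over Ldhb (the heart-type subunit) were more one-sided, with Aldoa at 98.3% to 99.7% and Ldha at 88.7% to 93.6% in every library. Eno2 and Eno3, the neuronal and muscle enolases, together left at least 95.3% to Eno1 in every library, with Eno1b set aside. Shares built on the low forms rest on few counts: Hk2 had 1 to 4 and Pfkm 0 to 2 in each shallow library.

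Glucose transporters were the exception to a fixed order. Slc2a1 (GLUT1) took 80.5% of Slc2a1 plus Slc2a3 per length in the deep library, 38.8% and 55.9% in Sirpa-KO replicates 2 and 3, and 30.3%, 23.0% and 51.0% in Sirpa-WT. Slc2a3 (GLUT3) stood at 31.2 CPM in the deep library, 70.8 and 65.3 in Sirpa-KO replicates 2 and 3, and 49.4 to 85.0 in Sirpa-WT, so here the deep library lay below all others. Slc2a1 had only 2 to 12 counts in each shallow library and did not pass the count filter of the test. Slc16a1 (MCT1), which moves lactate both ways, led Slc16a3 (MCT4), the exporter of glycolytic cells, with 92.3% of the pair in the deep library, 85.7% in both shallow Sirpa-KO libraries and 57.1% to 80.8% in Sirpa-WT.

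In the shallow libraries most counts of the Gapdh and Pgk1 families lay in pseudogenes and not in the genes. A copy was counted where at least 10% of its 25-base words occur in a coding transcript of the parent, which gave 186 annotated pseudogenes for 11 of the 35 genes, 159 of them for Gapdh. Gapdh had 102107 counts in the deep library, 668 and 904 in Sirpa-KO replicates 2 and 3, and 1083, 759 and 891 in Sirpa-WT. Its copies together had 2600 counts in the deep library, 8430 and 10071 in Sirpa-KO replicates 2 and 3, and 13543, 9758 and 9864 in Sirpa-WT. The copies thus held 2.48% of the family in the deep library and 91.7% to 92.8% in every shallow library, and the shares of the shallow genotypes overlapped. For Pgk1, the first ATP-making enzyme of glycolysis, the share was 0.20% in the deep library, 87.2% and 85.4% in Sirpa-KO replicates 2 and 3, and 90.2%, 89.3% and 88.6% in Sirpa-WT.

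Single copies outweighed their parents. Pgk1-rs7 (chr12:10898566-10900296) had 32 counts in the deep library, 1675 and 1669 in Sirpa-KO replicates 2 and 3, and 2574, 1993 and 2019 in Sirpa-WT. Pgk1 itself had 18479 counts in the deep library, 266 and 314 in Sirpa-KO replicates 2 and 3, and 295, 251 and 277 in Sirpa-WT. Gm10359 (chr5:105862701-105863702), whose printed stretch equals that of Gapdh, had 11 counts in the deep library, 1376 and 1606 in Sirpa-KO replicates 2 and 3, and 2647, 1878 and 1901 in Sirpa-WT. Each of these copies outweighed its parent gene in all 5 shallow libraries and stayed far below it in the deep one. Copies of Ldha (10 in number) and Pgam1 (3) took 42.6% to 53.4% and 50.2% to 55.1% of their families in the shallow libraries, against 0.0644% and 0.545% in the deep one. Copies of Pkm and Aldoa took less, at most 2.79% and 18.2% in a shallow library. Tpi1 had no copy by this rule, and 2.65% of its words occurred in any annotated pseudogene.

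The enolase pair split in the same way. Eno1 had 45502 counts in the deep library, 479 and 608 in Sirpa-KO replicates 2 and 3, and 596, 501 and 525 in Sirpa-WT. Eno1b had 45 counts in the deep library, 660 and 811 in Sirpa-KO replicates 2 and 3, and 1252, 938 and 1036 in Sirpa-WT. Eno1b therefore made up 0.0988% of the pair in the deep library (exact 95% interval 0.0721% to 0.132%), 57.5% ± 0.56 in Sirpa-KO replicates 2 and 3 (SD, n = 2) and 66.4% ± 1.3 in Sirpa-WT (SD, n = 3). The shallow genotypes did not overlap, at 57.2% and 57.9% against 65.2% to 67.7%. A 2-sided exact permutation test of that difference gave p = 0.2, the smallest that 2 against 3 libraries allow. Intervals here cover counting error only.

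**Figure D2:**
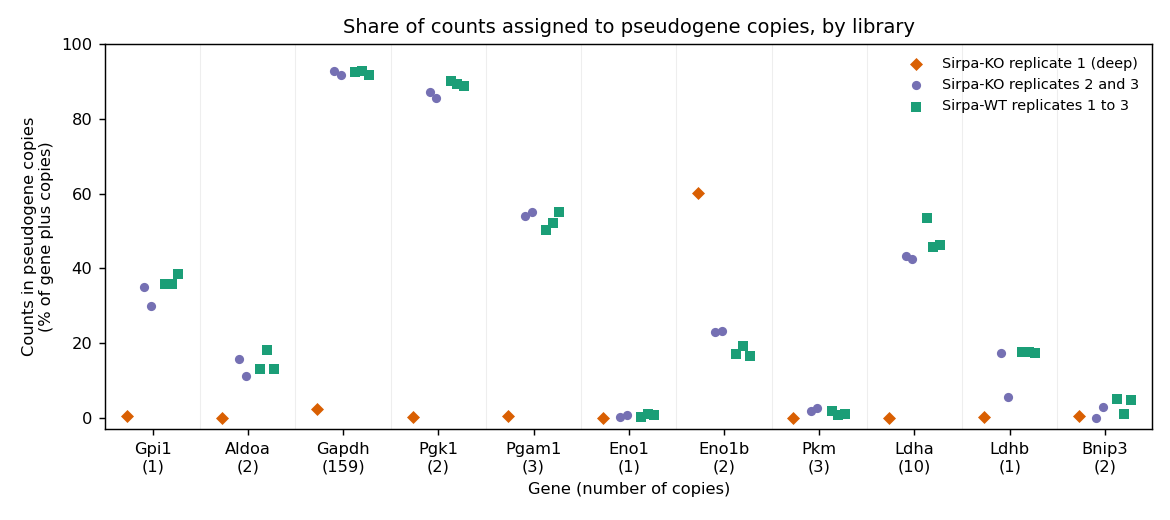
Each point is the share of a gene family's counts that lay in its pseudogene copies, in percent of gene plus copies, by library, for the 11 genes with copies; the number of copies stands under each name. The Gapdh and Pgk1 families lie between 85.4% and 92.8% in the shallow libraries and at or below 2.48% in the deep library (diamonds), whereas for Eno1b the deep library lies highest, at 60.2% of 113 counts.

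Sirpa-KO was compared with Sirpa-WT gene by gene with edgeR's quasi-likelihood test, fitted over the whole table. Genes had to pass a filter on low counts (minimum 10), and a gene was called at a Benjamini-Hochberg adjusted p under 0.05 over all genes tested. With all 6 libraries 0 of 18 members that passed the count filter were called (edgeR, smallest adjusted p = 0.574; 1 at an unadjusted p under 0.05, Bpgm), beside 0% of 5397 genes. DESeq2 on the same 6 libraries called 0 of these 18 members, beside 1 of 5397 genes. With limma voom 0 of the 18 were called, beside 1283 of 5397 genes, 1266 of them lower in Sirpa-KO. Without the deep library, 4 of 18 members were called, beside 5.84% of 5510 genes tested: Bpgm rose, and Eno1b, Bnip3 and Gapdh fell. For rises alone the background was 1.32% and for falls 4.52%, and this split turns with the scaling: 73 genes rose and 249 fell under TMM, against 239 and 136 under library size alone. The other 14 members tested did not pass, and the 17 members under the filter had at most 19 counts in any shallow library. In these bulk libraries, fewer cells that make a transcript and less of it per cell cannot be told apart.

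By its median the list lay slightly below all genes. The median log2 fold change of the 18 members was -0.082 without the deep library, against 0.013 over all genes tested, and 0.069 against 0.11 with all 6. Of the 18, 7 had a positive and 11 a negative value in the shallow libraries. Scaling by library size alone moved the median of all genes to 0.13 and that of the members to 0.038, and fold changes use TMM scaling unless another is named, which sets most genes near 0. An alternative, named removal of the trend below, took for each gene the deep library's log2 level minus its shallow average, fitted a smooth curve of each shallow library's deviation on that value and took the curve out before the test. A curve fitted to each library can also take out part of a difference between the genotypes. In the shallow libraries 1 of the 18 tested members lay wholly above Sirpa-WT and 3 wholly below, in CPM, beside 26.3% and 11.8% of all genes tested. Over all 6 libraries these were again 1 and 3 of 18, beside 20.4% and 10.2% of 5397 genes tested.

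**Figure D3:**
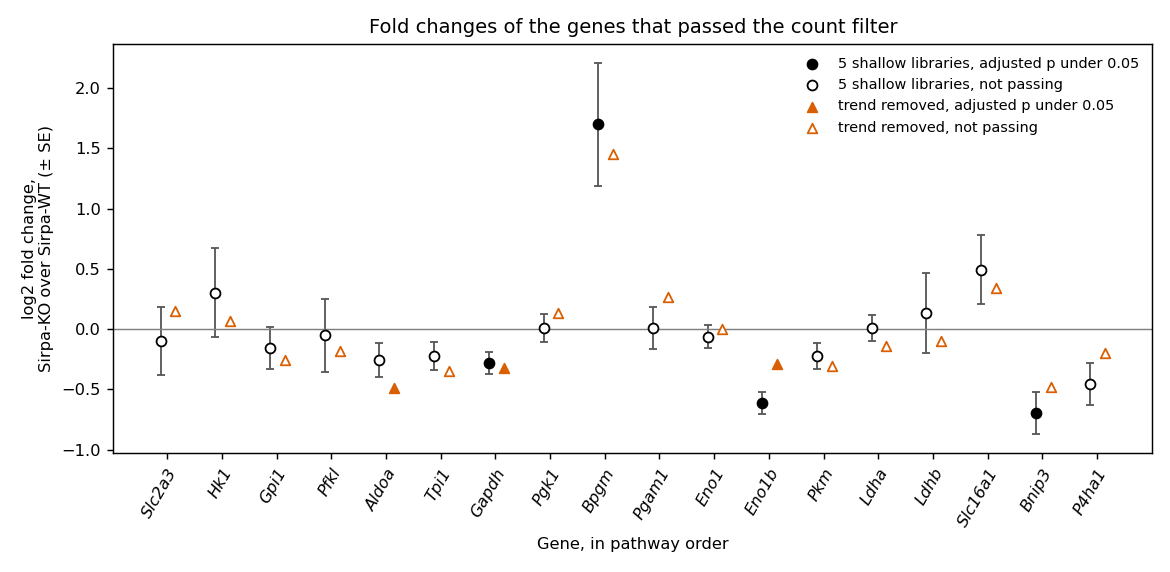
Circles give the log2 fold change of Sirpa-KO over Sirpa-WT with its SE in the 5 shallow libraries for the 18 genes that passed the count filter, and triangles the value after removal of the trend; filled symbols have an adjusted p under 0.05. Bpgm stands highest at 1.70, Bnip3 and Eno1b lowest at -0.70 and -0.61, and after removal of the trend Aldoa, Gapdh and Eno1b are the filled symbols.

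Bpgm, which makes and breaks 2,3-bisphosphoglycerate and is best known from red cells, was higher in each library labelled Sirpa-KO. It stood at 84.4 CPM in the deep library, 44.3 and 40.8 CPM in Sirpa-KO replicates 2 and 3, and 12.1, 20.4 and 2.89 CPM in Sirpa-WT. The genotypes did not overlap in any library, but Sirpa-KO lay wholly above in 20.4% of all genes tested. The shallow values are 15 and 15 counts in Sirpa-KO against 5, 7 and 1 in Sirpa-WT. Its log2 fold change was 1.70 ± 0.51 (SE, edgeR adjusted p = 0.0219) without the deep library and 2.11 ± 0.70 (adjusted p = 0.574) with it. The call ended without Sirpa-WT replicate 3 (1.28, adjusted p = 0.0943) and after removal of the trend (1.46, adjusted p = 0.125). It also ended without Sirpa-KO replicate 2 (1.62) or 3 (1.74), where the fold hardly moved; these fits leave 1 Sirpa-KO library, which is assumed to vary as the Sirpa-WT libraries do. With the replicate number as a block the adjusted p was 0.0572.

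Aldoa, Tpi1 and Gapdh, the steps just before Bpgm branches off, had negative fold changes in the shallow libraries, of which that of Gapdh was called. Gapdh (chr6:125161853-125166467) stood at 3418 CPM in the deep library, 1972 and 2459 CPM in Sirpa-KO replicates 2 and 3, and 2631, 2208 and 2579 CPM in Sirpa-WT. These ranges overlap, and the log2 fold change was small, -0.28 ± 0.09 (SE, edgeR adjusted p = 0.0398) without the deep library and -0.08 ± 0.49 (adjusted p = 0.924) with it. It was called in 8 of 20 alternatives, among them those that summed Gapdh with its copies under TMM and under library size alone. In these summed rows the copies held most counts. As a row of its own Gapdh was not called with library size alone (-0.16, edgeR adjusted p = 0.286), DESeq2 (adjusted p = 0.157) or the replicate block (edgeR adjusted p = 0.122). Nor was it called without Sirpa-WT replicate 1 (-0.23) or 3 (-0.24), or without Sirpa-KO replicate 2 (-0.15), which leaves 1 Sirpa-KO library. Aldoa, which cleaves fructose 1,6-bisphosphate, stood at 1363 CPM in the deep library, 345 and 471 in Sirpa-KO replicates 2 and 3, and 486, 378 and 483 in Sirpa-WT. Aldoa had -0.26 ± 0.14 (SE, adjusted p = 0.278), and -0.49 (adjusted p = 0.0214) with the trend removed. Tpi1, which interconverts the triose phosphates, had -0.23 ± 0.12 (adjusted p = 0.242), with 1418 CPM in the deep library, 676 and 819 in Sirpa-KO replicates 2 and 3, and 726, 835 and 859.5 in Sirpa-WT. In both, the shallow groups overlapped.

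The earliest steps did not pass. Gpi1, which turns glucose 6-phosphate into fructose 6-phosphate, stood at -0.16 ± 0.17 on the log2 scale (SE; edgeR, adjusted p = 0.66), on 78 and 82 counts in Sirpa-KO replicates 2 and 3 and 109, 68 and 80 in Sirpa-WT. Hk1 had 0.30 ± 0.37, Pfkl -0.05 ± 0.30 and Slc2a3 -0.10 ± 0.28, each on at most 35 counts in a shallow library. A p above the threshold at this depth does not show that these levels were alike.

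The steps below Bpgm did not pass either, apart from Eno1b. Pgam1, the phosphoglycerate mutase, had 0.01 ± 0.17 (SE), on 83 and 96 counts in Sirpa-KO replicates 2 and 3 and 112, 67 and 77 in Sirpa-WT. Pkm, a pyruvate kinase gene, stood at 1441 CPM in the deep library, 726 and 947 in Sirpa-KO replicates 2 and 3, and 879, 928 and 894 in Sirpa-WT. Its log2 fold change was -0.22 ± 0.11 (edgeR adjusted p = 0.231). Ldha, which makes lactate, stood at 2130.4 CPM in the deep library, 1113 and 1205 in Sirpa-KO replicates 2 and 3, and 949.7, 1097 and 1140.2 in Sirpa-WT. Its log2 fold change was 0.01 ± 0.10 (adjusted p = 0.973). Ldhb had 0.13 ± 0.33, and Slc16a1 0.49 ± 0.29 (adjusted p = 0.321), on 35 and 20 counts in Sirpa-KO replicates 2 and 3 and 21, 21 and 14 in Sirpa-WT.

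Eno1b fell, and Eno1 did not pass the test. Eno1b stood at 1.51 CPM in the deep library, 1948 and 2206 CPM in Sirpa-KO replicates 2 and 3, and 3041, 2728 and 2998 CPM in Sirpa-WT. Its log2 fold change was -0.61 ± 0.09 (SE, edgeR adjusted p = 7.95e-09) without the deep library and -1.20 ± 1.81 (adjusted p = 0.784) with it. The call held in each of the 16 alternatives of the 5-library comparison that kept Eno1b as a row of its own, at -0.29 with the trend removed (adjusted p = 0.0404). Eno1 stood at 1523 CPM in the deep library, 1414 and 1654 in Sirpa-KO replicates 2 and 3, and 1448, 1457 and 1519 in Sirpa-WT, with a log2 fold change of -0.06 ± 0.10 (adjusted p = 0.78). Since Eno1b derives from Eno1 mRNA, reads from stretches that the 2 genes share can be placed on either, and both values are uncertain.

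Summing each gene with its copies changed which members were called. Without the deep library the Pgk1 family stood at 6130 and 5867 CPM in Sirpa-KO and 7333, 6835 and 7056 CPM in Sirpa-WT. In the deep library it stood at 619.7 CPM. The shallow groups did not overlap, and among all genes tested as unsummed rows Sirpa-KO lay wholly below in 11.8%. The log2 fold change of the Pgk1 family was -0.36 ± 0.08 (SE, edgeR adjusted p = 0.000178), where Pgk1 alone had 0.01 ± 0.11 (adjusted p = 0.972). The summed Eno1, Eno1b and their copies had -0.37 ± 0.08 (adjusted p = 0.00025), and the Gapdh family -0.32 ± 0.07 (adjusted p = 0.00025). Under library size alone these families stood at -0.24, -0.25 and -0.19 and were still called. With the trend removed the Pgk1 family was called (-0.28, edgeR adjusted p = 0.0111), as was the Aldoa family (-0.50, adjusted p = 0.00741). The enolase (-0.08) and Gapdh (-0.21) families were not. Kept as separate rows under the same removal, Pgk1 stood at 0.14 and its copies Pgk1-rs7 and Gm5537 at -0.02 and 0.41, and none was called. The trend was taken out of the summed row by its own ratio to the deep library. Bpgm and Bnip3 were called in the summed table, but not once the trend was removed from it (adjusted p = 0.125 and 0.0899). With the trend left in, 5 of 17 members were called, beside 4.62% of 5409 rows lower and 1.37% higher.

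Some of the copies fell as well. Of 186, 100 passed the count filter, and by edgeR's test 14 of these fell, 86 did not pass and none rose, 12 of the 14 being copies of Gapdh. Their median log2 fold change was -0.16. Among all 1121 pseudogenes tested 8.74% were called lower and 0.535% higher. Gm10359 had -0.58 ± 0.08 (SE, adjusted p = 1.99e-09), and Pgk1-rs7 -0.45 ± 0.08 (adjusted p = 7.09e-06). After removal of the trend they stood at -0.08 and -0.02, none of the 14 was called, and the Gapdh copies Gm5559 and Gm7336 rose (0.57 and 0.33, adjusted p = 0.00237 and 0.0446). Gm5537, another full-length match to Pgk1, had 0.16 ± 0.14 (adjusted p = 0.583).

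Bnip3, a mitochondrial membrane protein that drives mitophagy in hypoxia, was the hypoxia-induced gene that fell. It stood at 52.3 CPM in the deep library, 195 and 185 CPM in Sirpa-KO replicates 2 and 3, and 277, 288 and 287 CPM in Sirpa-WT. Each library labelled Sirpa-KO lay below each Sirpa-WT library, as in 10.2% of all genes tested. The log2 fold change was -0.70 ± 0.18 (SE, edgeR adjusted p = 0.00337) without the deep library and -1.12 ± 0.55 (adjusted p = 0.574) with it. It was called with DESeq2 (adjusted p = 0.0301), the replicate block (adjusted p = 0.00202) and library size alone (-0.58, adjusted p = 0.0256), but not with the trend removed (-0.48, adjusted p = 0.145). Without Sirpa-KO replicate 3, which leaves 1 Sirpa-KO library, it stood at -0.67 (adjusted p = 0.109). P4ha1, a subunit of the enzyme that hydroxylates collagen prolines, lay at 109.8 CPM in the deep library, 212.5 and 212.1 CPM in Sirpa-KO replicates 2 and 3, and 243, 311 and 255 CPM in Sirpa-WT. These groups did not overlap either, but the change did not pass, at -0.46 ± 0.17 (adjusted p = 0.0906), and passed with the replicate block (-0.53, adjusted p = 0.0386) or without Sirpa-WT replicate 1 (-0.53, adjusted p = 0.0444).

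**Figure D4:**
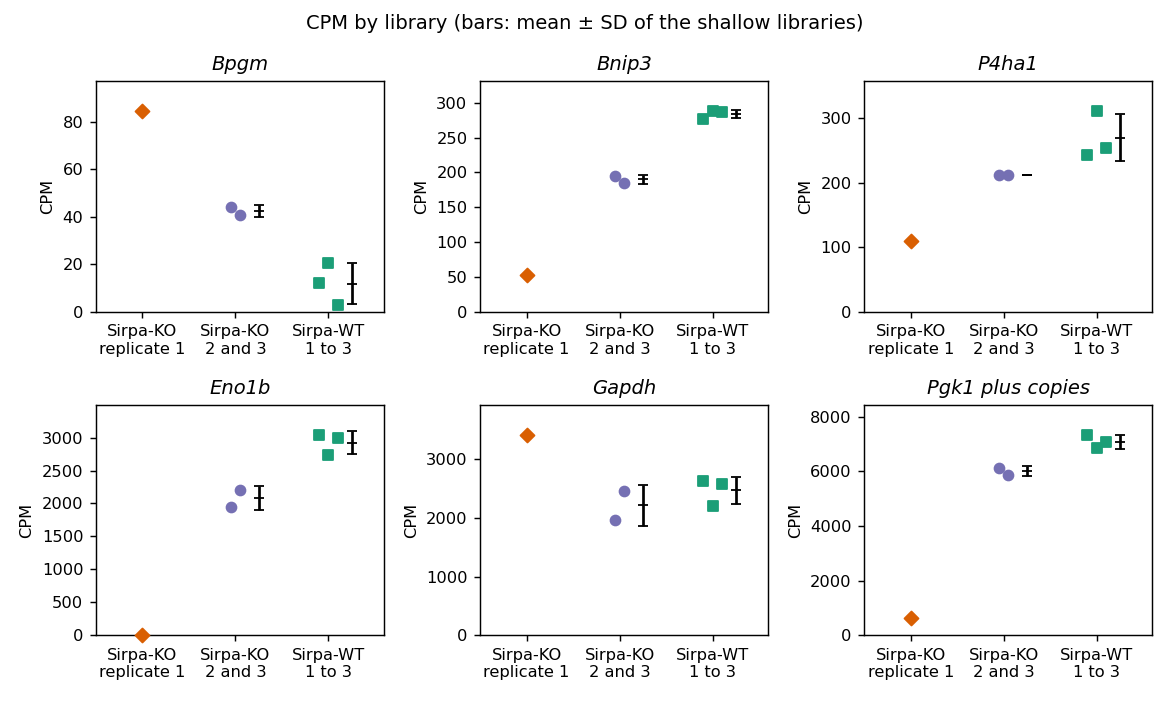
CPM by library for 5 genes and for Pgk1 summed with its 2 copies, with the deep library at the left, Sirpa-KO replicates 2 and 3 in the middle and Sirpa-WT at the right; bars give the mean and SD of the shallow groups, and axes start at 0. Bpgm is higher and Bnip3 and P4ha1 are lower in every Sirpa-KO library than in Sirpa-WT, Gapdh overlaps, and Eno1b and the Pgk1 family lie far lower in the deep library than in the others.

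The other hypoxia-induced genes were low in the shallow libraries and did not pass the count filter. Car9, the cell-surface carbonic anhydrase used as a hypoxia marker, had 204 counts (6.83 CPM) in the deep library, 0 and 1 in Sirpa-KO replicates 2 and 3, and 1, 1 and 1 in Sirpa-WT. Adm (adrenomedullin, a vasodilator peptide) and Ankrd37 had 33 and 49 counts in the deep library (1.10 and 1.64 CPM) and 0 in every shallow library, which allows up to 7.29 to 8.85 CPM there. Egln3, the oxygen-sensing prolyl hydroxylase that HIF itself induces, had 109 counts in the deep library (3.65 CPM), 2 and 0 in Sirpa-KO replicates 2 and 3, and 3, 0 and 2 in Sirpa-WT. Ndrg1, a stress-induced gene, had 1251 counts in the deep library (41.9 CPM) but at most 2 in any shallow library. Ddit4 (REDD1), which restrains mTORC1, had 406 counts in the deep library (13.6 CPM), 1 and 2 in Sirpa-KO replicates 2 and 3, and 5, 3 and 6 in Sirpa-WT. Its shallow groups did not overlap, and among genes that passed the filter Sirpa-KO lay wholly below in 11.8%. A fit of Ddit4 without the filter gave -1.66 ± 0.85 (SE, edgeR adjusted p = 0.543).

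The kinases that set the flow were also sparse. Pdk1, which keeps pyruvate from the citric acid cycle, had 1421 counts in the deep library (47.6 CPM). Sirpa-KO replicates 2 and 3 had 7 and 3, and Sirpa-WT had 7, 5 and 4. Pfkfb3 and Pfkfb4, which make the activator of phosphofructokinase, had 718 and 73 counts in the deep library and at most 6 and 1 in a shallow one. The remaining members under the filter, Slc2a1, Hk2, Pfkm, Pfkp, Aldoc, Eno2, Eno3 and Slc16a3, had adjusted p of 0.576 or more in the fit without the filter. Slc16a3 had 349 counts in the deep library, 7 and 4 in Sirpa-KO replicates 2 and 3, and 19, 7 and 4 in Sirpa-WT.

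The members differed in how far the deep library stood from the others, and that ran alongside their fold changes in the shallow libraries. As a TMM-scaled log2 ratio, the deep library against the shallow average stood at -11.0 for Eno1b, -2.82 for Bnip3 and -1.77 for P4ha1, the lowest 3 of the 18, and 1.69 for Bpgm, the highest. Those are also the 3 most negative fold changes and the most positive one. Pgam1 (-1.73) and Slc2a3 (-1.69) had low ratios too, with fold changes near 0. This is a description over 18 genes that share the same 5 libraries, and the part of this trend in each result was not tested beyond the values given with it removed.

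Neighbouring pathways were read without the deep library, beside the 5.84% of all genes tested that were called. Of 29 other hypoxia-induced genes 11 were tested: Gbe1, the glycogen branching enzyme, and Fam162a, a mitochondrial protein gene induced by HIF-1, fell by edgeR's test, 9 did not pass and none rose, at a list median of -0.16. Gbe1 stood at 56.6 CPM in the deep library, 103 and 89.8 in Sirpa-KO replicates 2 and 3, and 163, 154 and 127 in Sirpa-WT, with -0.75 ± 0.22 (SE, adjusted p = 0.0195). Fam162a stood at 72.0 CPM in the deep library, 94.4 and 76.2 in Sirpa-KO replicates 2 and 3, and 109, 145 and 151 in Sirpa-WT, with -0.77 ± 0.23 (adjusted p = 0.0218). In neither gene did the genotypes overlap, as in the 10.2% of all genes tested with Sirpa-KO wholly below. Neither call held with the trend removed (-0.49 and -0.59) or with all 6 libraries (edgeR adjusted p = 0.574 for each). Mif, a cytokine gene named here after its values were seen, was the gene of this list called after removal of the trend (-0.78, adjusted p = 0.0164).

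The regulators of HIF were not called. Of 13, 6 were tested and 0 passed in either direction, with a median of -0.14. The most abundant was Cul2, the scaffold of the ligase that destroys HIF, at -0.30 ± 0.17 (SE, edgeR adjusted p = 0.312). Of 23 genes of pyruvate entry and the citric acid cycle, 19 were tested and Suclg1, a subunit of succinyl-CoA ligase, fell (-0.45 ± 0.13, adjusted p = 0.0211; -0.17 with the trend removed, where it was not called). In the pentose phosphate pathway, 0 of 4 tested genes passed, with a median of 0.49 and G6pdx, its entry enzyme, at 0.51 ± 0.23 (adjusted p = 0.167). In gluconeogenesis and glycogen metabolism 0 of 4 passed, with Ugp2 at -0.02 ± 0.17 (adjusted p = 0.973), and among tissue-restricted isoforms and regulators 1 of 17 was tested, Myc (-0.45 ± 0.35, adjusted p = 0.489). With all 6 libraries edgeR called 0 genes of these lists.

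Promoters of the members were searched for the core that HIF binds, ACGTG or GCGTG, on both strands, in RefSeq windows of 250 bases before to 50 after each annotated start (GRCm38.p6). Windows were found for 32 of the 35 genes, and 28 of the 32 (87.5%) had a match in at least 1 window, beside 46.7% of all genes with a window. With ACGTG alone the shares were 62.5% and 21.8%. Neither base composition nor the number of windows per gene was matched. The 32 members had 45 windows, and all 27025 genes had 32851. The members were picked by name, some as known targets of the hypoxia response. Matches can overlap, and a match is not a bound site. The 250 bases before the start of Bnip3, P4ha1 and Bpgm, the 2 hypoxia-induced members that passed the count filter and the enzyme gene that rose, are printed with matches in capitals.
Bnip3: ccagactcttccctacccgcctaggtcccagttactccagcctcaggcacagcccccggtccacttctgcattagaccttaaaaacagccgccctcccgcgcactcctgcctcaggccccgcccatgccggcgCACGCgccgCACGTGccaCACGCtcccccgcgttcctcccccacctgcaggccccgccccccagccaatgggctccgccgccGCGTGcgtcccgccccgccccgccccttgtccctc
P4ha1: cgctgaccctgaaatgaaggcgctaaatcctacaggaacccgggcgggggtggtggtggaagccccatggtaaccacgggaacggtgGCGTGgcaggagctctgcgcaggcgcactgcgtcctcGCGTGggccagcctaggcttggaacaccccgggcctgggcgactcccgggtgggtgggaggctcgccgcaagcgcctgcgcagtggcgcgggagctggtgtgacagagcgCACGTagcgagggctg
Bpgm: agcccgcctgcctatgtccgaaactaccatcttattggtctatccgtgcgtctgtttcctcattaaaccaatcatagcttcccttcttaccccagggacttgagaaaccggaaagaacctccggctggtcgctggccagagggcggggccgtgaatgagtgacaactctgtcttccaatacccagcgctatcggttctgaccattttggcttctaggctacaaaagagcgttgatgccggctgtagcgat
Bnip3 (chr7:138909507-138909756, minus strand) had 5 matches, 2 of them overlapping in 1 palindromic CACGTG, P4ha1 (chr10:59323046-59323295, plus strand) had 3, and Bpgm (chr6:34476106-34476355, plus strand) had 0. 

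The counting did not use strand, and 741 bases of Gpi1 exons lie opposite Gm26762, which had 0 counts of its own in each shallow library. Tpi1 shares 34 bases with Spsb2 on the other strand. Of Ankrd37 exons, 24.9% lie opposite Lrp2bp and 4.06% opposite Ufsp2, which had 17 and 2142 counts in the deep library. Without strand, the 49 counts of Ankrd37 there cannot be placed on 1 strand.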

How the data were processed

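Poly(A)-selected RNA of 3 Sirpa-KO and 3 Sirpa-WT libraries was counted by the authors. The deposited values are raw counts of fragments per gene, made with featureCounts 1.5.1 over exons of Ensembl release 75 for GRCm38 without a strand option, per the file headers; the submitters' processing notes name STAR 2.6.0. Groups and replicate numbers came from titles, and 37693 of 39179 gene identifiers were given a GENCODE M21 symbol.

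Genes were filtered with filterByExpr (minimum count 10), scaled by TMM and tested 2-sided with edgeR's quasi-likelihood test (robust=TRUE), adjusted by Benjamini-Hochberg over all genes tested, threshold 0.05 (R 4.3.3, edgeR 4.0.16, limma 3.58.1, DESeq2 1.42.0). SEs were the log2 fold change over the root of F. Untested genes took values from a fit without the filter. The trend alternative used a lowess curve (span 0.3) on the log2 ratio of Sirpa-KO replicate 1 to the others, as offsets. Copies were found by 25-base words. The test was tried on simulated counts. Between shallow replicates the chi-square of counts was 1.18 to 1.64 per degree of freedom, above sampling noise, so none was taken for a duplicate.

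The members and lists were chosen with earlier results of these data known. All 35 members are described; of other lists, up to 3 called genes or the most abundant one were named, and Sirpa. The copies named were chosen with their values in view. No adjustment over the list alone is given.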

Additional observations from a re-analysis of the deposited data

How the results depend on the processing

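With all 6 libraries edgeR called 0 genes (344 had an unadjusted p under 0.05), against 1 by DESeq2, 1283 by limma voom and 0 to 322 when each library in turn was left out; the count of 0 members was 0 to 4 with each left out, the higher values without Sirpa-KO replicate 1. Without that library the 322 genes became 127 with DESeq2, 202 among protein-coding genes, where fewer were tested, 104 with the trend removed, 103 with copies summed and the trend removed, and 124 to 349 with a further library left out (124 and 126 on leaving out Sirpa-KO replicate 2 or 3, 214 on leaving out Sirpa-WT replicate 2). Library size alone gave 239 higher and 136 lower, against 73 and 249. The 4 members became 2 with DESeq2, 2 with copies summed and the trend removed, and 2 to 4 with a further library left out; Bnip3 and Eno1b were called without Sirpa-WT replicate 3 or Sirpa-KO replicate 2, and Eno1b and Gapdh without Sirpa-KO replicate 3. Those last 2 Sirpa-KO omissions keep a single Sirpa-KO library, so Sirpa-WT alone gives the spread and the lone library is assumed to vary like it. DESeq2 gave no adjusted p for the tested members Bpgm, Slc2a3, Hk1, Pfkl, Ldhb and Slc16a1, nor for Gbe1 and Fam162a. Its counts of called genes thus rest on fewer adjusted values than edgeR's.

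Pgk1 alone reversed against a called value: 0.01 became -0.36 with copies summed, -0.24 with copies summed under library size alone and -0.28 with copies summed and the trend removed. In the shallow libraries most counts of the summed row are those of Pgk1-rs7. With the trend removed and the rows kept apart, Pgk1 stood at 0.14, Pgk1-rs7 at -0.02 and Gm5537 at 0.41, and none was called. The summed row has its own ratio to the deep library, and the trend was taken out by that ratio. Of 351 values of single members under alternatives, 318 kept their side of the threshold, 24 lost and 6 gained a call, and 49 uncalled values changed sign. Apart from the values above, the cause of these differences was not tested. Copies summed under library size alone or with the trend removed were alternatives chosen after seeing the data.

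Deviations of same-numbered libraries from their group means had r near 0 (0.0236, -0.0415 and 0.0584 for numbers 1 to 3 over 6 libraries). There the deep library shapes the Sirpa-KO mean, so these values say little on pairing. Without it r was 0.00439 and -0.0133 for numbers 2 and 3. Deviations of Sirpa-KO replicates 2 and 3 from their shared mean then mirror each other. These values are therefore not independent and cannot settle whether the libraries were paired. With the replicate block the counts were 0 genes and 0 members over 6 libraries, and 317 genes and 3 members (Bnip3, Eno1b and P4ha1) without Sirpa-KO replicate 1. Depth limits the shallow libraries: 17 of 35 members did not pass the count filter there.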
